A study of Mus musculus with 5 samples.

Results

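The Frizzled genes Fzd1 to Fzd10 encode the family of cell surface receptors for Wnt proteins, and their transcripts were followed here in mouse forelimb buds at E11.5. All probe sets whose platform gene symbol was Fzd1 to Fzd10 were taken, which gave 26 probe sets for 10 genes, out of 45037 probe sets and 18193 named genes on the array. The series compared 2 double mutant arrays with 3 wild type arrays, each of forelimb RNA from C57Bl/6 embryos that were not pooled. The double mutants were labelled Sost-/-; Sostdc1-/- and the controls wild-type, with no agent given to either. The labels do not say which part of either gene was deleted.

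A Frizzled receptor binds a Wnt ligand with an extracellular cysteine-rich domain, spans the membrane several times and passes the signal to Dishevelled inside the cell. Together with an LRP co-receptor it stabilises beta-catenin, and with partners such as Ror2 it drives beta-catenin-independent signalling that orients cells. Sclerostin, the product of Sost, and the related protein of Sostdc1 bind the LRP co-receptor and not the Frizzled. In the limb bud Wnt signals from the ectoderm and from the distal mesenchyme act on growth, patterning and elongation.

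Median intensities on the linear scale were 44.4 and 42.1 in double mutants and 39.4 to 41.7 in wild type, close but not overlapping. The arrays also differed outside the mouse genes. The poly-A spike-in Dap, added before labelling, stood at mean log2 levels of 6.90 and 7.28 in the double mutants and between 3.23 and 3.36 in wild type. The 3' minus 5' difference of the Gapdh control, a readout of RNA integrity and labelling, was 0.27 and 0.16 on the log2 scale in double mutants and −0.14 to −0.06 in wild type. That of Actb was 0.65 and 0.56 in double mutants, 0.20 and 0.24 in wild type replicates 1 and 2, and 0.68 in wild type replicate 3. Xist was high in both double mutant arrays and in wild type replicate 1, at 11.75 to 12.37, and Y-linked transcripts were high in every array except wild type replicate 1, so it is uncertain whether each double mutant array held a single embryo. Of the targeted genes, Sost fell on its brightest probe set, 1450179_at (−2.17 on the log2 scale, adjusted p = 0.0091 with limma), and was not called on 1421245_at (−0.73, adjusted p = 0.237). Sostdc1 went against the label on its brightest probe set, 1449340_at, with 8.90 and 8.96 in the libraries labelled double mutant and 8.75 to 9.01 in wild type (0.05, adjusted p = 0.775). On 1460250_at it fell, to 6.28 and 7.35 from 8.94 to 9.42 (−2.35, adjusted p = 0.0233). Whether any of these probe sets lies in a deleted part is not known here, and every direction below rests on the labels. Marker genes were counted on their brightest probe sets, of which 6.56% were called higher and 8.14% lower over all genes at an adjusted p under 0.05. The mesenchyme markers summed to 19088 to 20190 linear units in double mutants and 18841 to 20161 in wild type, with 0 of 7 called by limma and 1 at an unadjusted p under 0.05. Of the 9 surface ectoderm markers 5 were called higher and 0 lower, with sums of 5811 to 6084 against 3902 to 4417. Only Krt5 had a negative difference, at 9.43 and 9.12 in double mutants and 9.49 to 9.79 in wild type (−0.38, adjusted p = 0.157 with limma). Of the 5 endothelial markers 2 were called lower, with sums of 1048 to 1096 against 1452 to 1534. These were Pecam1 (−1.98) and Emcn (−0.52), while Cdh5, Kdr and Tek differed by −0.06, −0.03 and −0.06, and the median of the 5 was −0.06. For every difference below, genotype cannot be told apart from preparation, nor fewer cells of a type from less RNA per cell.

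No Frizzled probe set was called higher in the double mutants and 8 of 26 were called lower, on 6 genes: Fzd1, Fzd2, Fzd3, Fzd6, Fzd7 and Fzd8. A call means an adjusted p under 0.05 with limma over all 45037 probe sets, where 9.52% were called lower and 8.70% higher. The largest falls were on 1 probe set each of Fzd1 (7.57-fold), Fzd6 (3.55-fold) and Fzd7 (2.79-fold). Fzd4, Fzd5, Fzd9 and Fzd10 had no called probe set. The median difference was −0.30 on the log2 scale over the 26 Frizzled probe sets and −0.01 over all probe sets, and 19 of the 26 differences were negative. At an unadjusted p under 0.05, 10 Frizzled probe sets were lower and 0 higher. The groups did not overlap in 13 of the 26, with the double mutants lower in 12 and higher in 1, while over all probe sets the double mutants lay below wild type in 23.0% and above in 22.1%. Calls were lost when single arrays were left out, while the differences of all 8 called probe sets stayed negative. Leaving out a double mutant array leaves 1 in that group, whose spread is then taken to be that of wild type. Without double mutant replicate 1 or wild type replicate 2 limma called 0 Frizzled probe sets, with 11 and 8 at an unadjusted p under 0.05 and 0 called among all probe sets. It called 1 without double mutant replicate 2, 2 without wild type replicate 1 and 6 without wild type replicate 3, of which 4 were among the original 8.

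**Figure D1:**
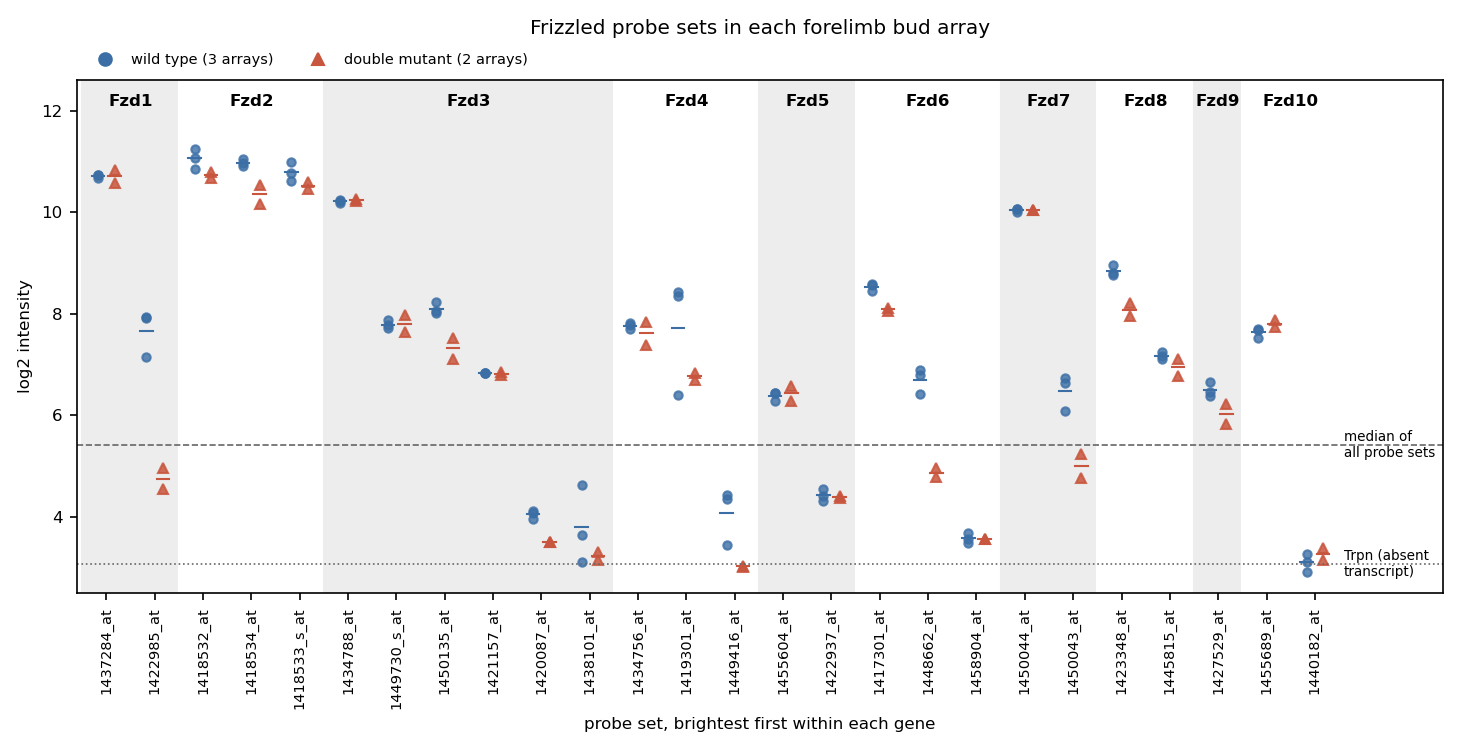
Log2 intensity (vertical axis) of the 26 Frizzled probe sets (horizontal axis, grouped by gene and ordered by mean over the 5 arrays) in the 3 wild type arrays (circles) and 2 double mutant arrays (triangles), with short lines at the group means. The dashed line is the median of all probe sets (5.41) and the dotted line the wild type mean of Trpn, a control for an absent transcript (3.07). For Fzd1 and Fzd7 the groups coincide on the upper probe set and stand apart on the lower one.

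Where a gene had several probe sets, they did not report the same difference. On the brightest probe set of each gene, 2 of 10 genes fell, Fzd6 and Fzd8, and the median difference was −0.08. On the other 16 probe sets, which belong to 9 genes, 6 fell and the median was −0.55. Over all genes 8.14% of brightest probe sets and 15.0% of other probe sets were called lower, 6.56% and 8.66% were called higher, and the medians were −0.02 and −0.04. The other probe sets of the mesenchyme markers had a median of −0.64, with 4 of 10 called lower, against −0.05 on their brightest. The partner lists below differed on their other probe sets. Medians were −1.29 for soluble Wnt binders (3 of 6 lower) and −1.20 for Dishevelled genes (1 of 2). They were −0.19 for co-receptors and partners (2 of 6), 0.01 for receptor turnover (0 of 13) and 0.00 for ligands (1 of 13). Probe sets of 1 gene share a target, so they are not separate evidence on that gene. Signal also depends on each probe set's own sequence, so a higher signal on one probe set than on another does not mean more transcript, and each probe set or gap is compared between genotypes.

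**Figure D2:**
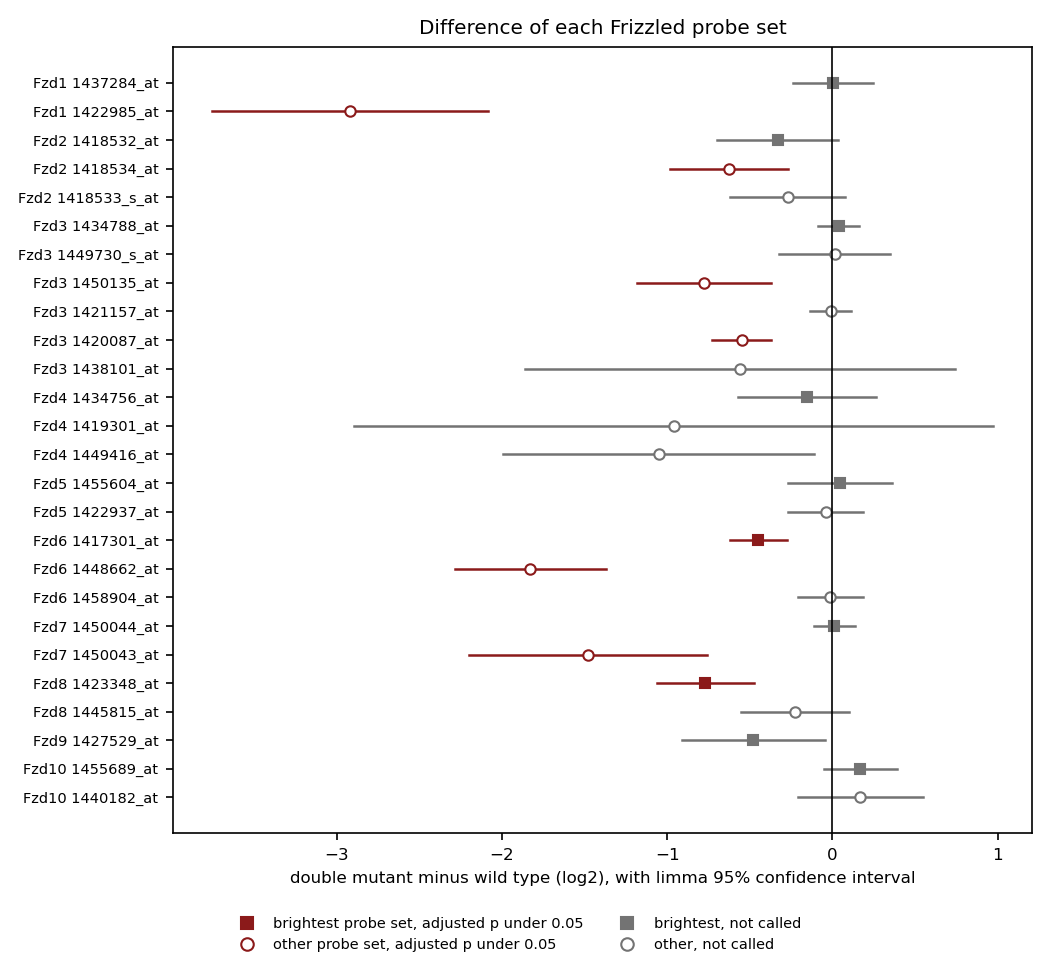
Double mutant minus wild type difference on the log2 scale (horizontal axis) of each Frizzled probe set (rows), with limma's 95% confidence interval. Filled squares mark the brightest probe set of a gene, open circles the others, and dark red an adjusted p under 0.05. All 8 called probe sets lie to the left of 0, from −2.92 for Fzd1 1422985_at to −0.45 for Fzd6 1417301_at.

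Fzd1, Fzd2 and Fzd7 form the subfamily of closely related receptors most often tied to beta-catenin signalling. The stretches of 250 bases upstream of the RefSeq start sites of Fzd1 and Fzd7 (build GRCm38.p6) are shown because these related genes gave the widest disagreement between probe sets. Fzd1 lies on the minus strand with its window at chr5:4758217-4758466, and Fzd7 on the plus strand at chr1:59481897-59482146. Capitals mark CTTTGA on either strand, a core recognised by the Wnt effectors of the TCF and LEF family.
Fzd1: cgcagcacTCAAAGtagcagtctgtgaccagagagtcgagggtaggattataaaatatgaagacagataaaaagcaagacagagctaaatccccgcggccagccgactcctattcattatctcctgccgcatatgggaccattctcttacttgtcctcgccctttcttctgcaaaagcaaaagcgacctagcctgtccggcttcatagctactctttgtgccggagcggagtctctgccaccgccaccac
Fzd7: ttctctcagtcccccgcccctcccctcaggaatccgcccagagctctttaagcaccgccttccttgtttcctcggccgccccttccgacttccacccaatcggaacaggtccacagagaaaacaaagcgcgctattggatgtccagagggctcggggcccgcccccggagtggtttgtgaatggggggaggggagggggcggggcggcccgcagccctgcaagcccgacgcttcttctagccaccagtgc
The letters occurred once upstream of Fzd1, starting at position −242 from the start site, and not in the Fzd7 window. They were in 1 of the 6 Frizzled windows that the promoter table held and in 13.8% of all 32851 windows of that length. A match is a description of the letters, not of a bound site.

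Fzd1 signal differed by probe set. On 1437284_at it stood at log2 10.58 and 10.83 in double mutants and 10.66, 10.72 and 10.72 in wild type, so the wild type arrays lay inside the span of the double mutants. The difference was 0.00 ± 0.09 (SE, adjusted p = 0.993), with a 95% interval from −0.24 to 0.25. On 1422985_at the double mutants stood at 4.95 and 4.54 and wild type at 7.91, 7.94 and 7.15. The groups were far apart there, the double mutant arrays lay below the median of all probe sets, and the difference was −2.92 ± 0.31 (SE, adjusted p = 0.0114). With 1 array left out it ranged from −3.18 to −2.72 and was called only without wild type replicate 3 (adjusted p from 0.0147 to 0.0732).

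The Fzd7 probe sets also disagreed. On 1450044_at both double mutant arrays read 10.05 and the wild type arrays 10.00, 10.06 and 10.06, a difference of 0.01 with an interval from −0.11 to 0.13. On 1450043_at the double mutants read 4.77 and 5.23 and wild type 6.74, 6.63 and 6.08. The second probe set was lower in every double mutant array, by −1.48 ± 0.27 (SE, adjusted p = 0.0317). That call also remained only without wild type replicate 3, with differences from −1.71 to −1.25 (adjusted p from 0.0363 to 0.147).

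Fzd2, a receptor through which Wnt5a can act, was bright on all 3 probe sets and lower in double mutants on each, with no overlap. On 1418534_at the double mutants stood at 10.54 and 10.16 and wild type at 10.97, 10.92 and 11.05, a fall of 1.54-fold (−0.63 ± 0.13, SE, adjusted p = 0.0446). The other probe sets gave −0.33 (1418532_at, adjusted p = 0.191) and −0.27 (1418533_s_at, adjusted p = 0.248), and neither was called. Here the probe sets pointed one way, but the call on 1418534_at was lost when any 1 array was left out (−0.82 to −0.44, adjusted p from 0.0518 to 0.150).

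Fzd3 and Fzd6 encode the receptors best known for planar cell polarity, Fzd3 in axon tracts and Fzd6 in the orientation of hair follicles. Fzd6 fell on both of its probe sets above the median level. On 1417301_at, its brightest, the double mutants read 8.05 and 8.12 and wild type 8.45, 8.58 and 8.57. The arrays within each group were close together, and the difference of −0.45 ± 0.06 (SE, adjusted p = 0.0191) corresponds to 1.36-fold. On 1448662_at the double mutants read 4.78 and 4.95 and wild type 6.78, 6.89 and 6.41, a difference of −1.83 with an SE of 0.17 (adjusted p = 0.00925). Both calls held without wild type replicate 1, the second also without wild type replicate 3, and neither in the other leave-outs, with differences from −0.49 to −0.41 and from −1.97 to −1.73 (highest adjusted p 0.0916 and 0.0689). The third Fzd6 probe set, 1458904_at, was dim, at 3.56 in both double mutants and 3.48 to 3.67 in wild type.

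Fzd3 had 6 probe sets, of which 2 fell and 4 were not called. The brightest, 1434788_at, read 10.27 and 10.23 in double mutants and 10.19 to 10.24 in wild type, a difference of 0.04 with an interval from −0.09 to 0.16. A second, 1421157_at, lay between 6.79 and 6.85 in all 5 arrays. On 1450135_at the double mutants read 7.11 and 7.53 and wild type 8.22, 8.05 and 8.02 (−0.78 ± 0.15, SE, adjusted p = 0.0374). The other fall was on 1420087_at, at 3.49 in both double mutants and 4.08, 4.10 and 3.95 in wild type (−0.55 ± 0.07, SE, adjusted p = 0.0138). That probe set was close to the absent-transcript control Trpn, whose highest value was 3.39, so the size of its fall is uncertain. The first call remained only without double mutant replicate 2 (−0.98 to −0.57 over the leave-outs, adjusted p from 0.0497 to 0.143) and the second only without wild type replicate 3 (−0.60 to −0.52, adjusted p from 0.0197 to 0.0733). Of the remaining probe sets, 1449730_s_at differed by 0.01, and 1438101_at by −0.56 with wild type spread from 3.11 to 4.62 (adjusted p = 0.473).

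Fzd5 and Fzd8 are a closely related pair. Fzd8 fell on 1423348_at, from 8.96, 8.81 and 8.77 in wild type to 8.20 and 7.95 in double mutants, a difference of −0.77 ± 0.11 (SE, adjusted p = 0.0191) or 1.70-fold. The groups did not overlap, but the call was lost when any 1 array was left out (−0.90 to −0.64, adjusted p from 0.0557 to 0.0973). Its second probe set, 1445815_at, overlapped, at 7.11 and 6.77 in double mutants and 7.10 to 7.24 in wild type (−0.23, adjusted p = 0.288). Fzd5 did not separate the groups. On 1455604_at it stood at 6.58 and 6.28 in double mutants and 6.28 to 6.44 in wild type, and the 95% interval of the difference ran from −0.27 to 0.36. On 1422937_at, below the median of all probe sets, all 5 arrays lay between 4.31 and 4.54.

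Fzd4, which also serves as the receptor for norrin in blood vessels, was uneven within wild type. On 1419301_at wild type replicates 1 and 2 read 8.34 and 8.43 and replicate 3 read 6.40, below the double mutants at 6.83 and 6.70. On 1449416_at the same wild type arrays read 4.36 and 4.42 against 3.43 in replicate 3, and the double mutants read 3.02 and 3.01, at the level of Trpn. Neither probe set was called (−0.96, adjusted p = 0.414, and −1.05, adjusted p = 0.122). Without wild type replicate 3 both were, at −1.62 (adjusted p = 0.0128) and −1.37 (adjusted p = 0.0110), the size on 1449416_at being uncertain at that level. The brightest Fzd4 probe set, 1434756_at, was even, at 7.70 to 7.81 in wild type and 7.84 and 7.38 in double mutants.

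Fzd9 and Fzd10 complete the family. Fzd9 has a single probe set, 1427529_at, at 6.22 and 5.82 in double mutants and 6.38, 6.45 and 6.66 in wild type. The groups did not overlap, and the difference of −0.48 ± 0.16 (SE) missed the threshold (adjusted p = 0.125). Fzd10, whose product is expressed in embryonic ectoderm and neural tissue, was the 1 gene with a non-overlapping rise. On 1455689_at it read 7.73 and 7.87 in double mutants and 7.53, 7.69 and 7.67 in wild type, which gave 0.17 ± 0.08 for the difference (SE, adjusted p = 0.252). The second Fzd10 probe set, 1440182_at, stayed at 2.91 to 3.38, the level of Trpn. Fzd10os, the long noncoding gene next to Fzd10 in the RefSeq annotation, was called higher on 1441338_at (0.43 ± 0.09, SE, adjusted p = 0.0411) and not on 1444013_at (−0.13, adjusted p = 0.350). The probe sets' strand was not known here.

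To describe the disagreement, the gap between a gene's brightest probe set and each of its others was taken in every array and compared between genotypes. This comparison was chosen after the values were seen. On the brightest probe sets of Fzd1, Fzd3 and Fzd7 the differences were 0.00, 0.04 and 0.01. For those genes a wider gap restates the fall of the other probe set and is no separate evidence. Of 16 Frizzled gaps, 5 were wider in double mutants and 2 narrower, while over the 16752 gaps of all genes 18.6% were wider and 12.0% narrower. The Fzd1 gap was 5.64 and 6.29 in double mutants and 2.75, 2.79 and 3.57 in wild type, so it was wider by 2.92 ± 0.33 (SE, adjusted p = 0.00358). For Fzd7 the gap was wider by 1.49 ± 0.26 (SE, adjusted p = 0.0119), and for Fzd6 1448662_at by 1.38 ± 0.19 (SE, adjusted p = 0.00549). The Fzd3 gaps to 1450135_at and 1420087_at were wider by 0.81 and 0.59 (adjusted p = 0.0211 and 0.0179). Those narrower in double mutants were Fzd8 1445815_at (−0.54, adjusted p = 0.0359) and Fzd6 1458904_at (−0.44, adjusted p = 0.0474), genes whose brightest probe set fell. Because 1458904_at stood close to Trpn in every array, its gap restates the fall of 1417301_at, and the size of the 1420087_at gap is as uncertain as that probe set's fall. Between brighter probe sets 4 gaps were wider and 1 was narrower. Gaps of the other 9 pairs were not called. With limma, 1 gap was called without double mutant replicate 1, 3 without double mutant replicate 2, 3 without wild type replicate 1, 2 without wild type replicate 2 and 8 without wild type replicate 3.

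**Figure D3:**
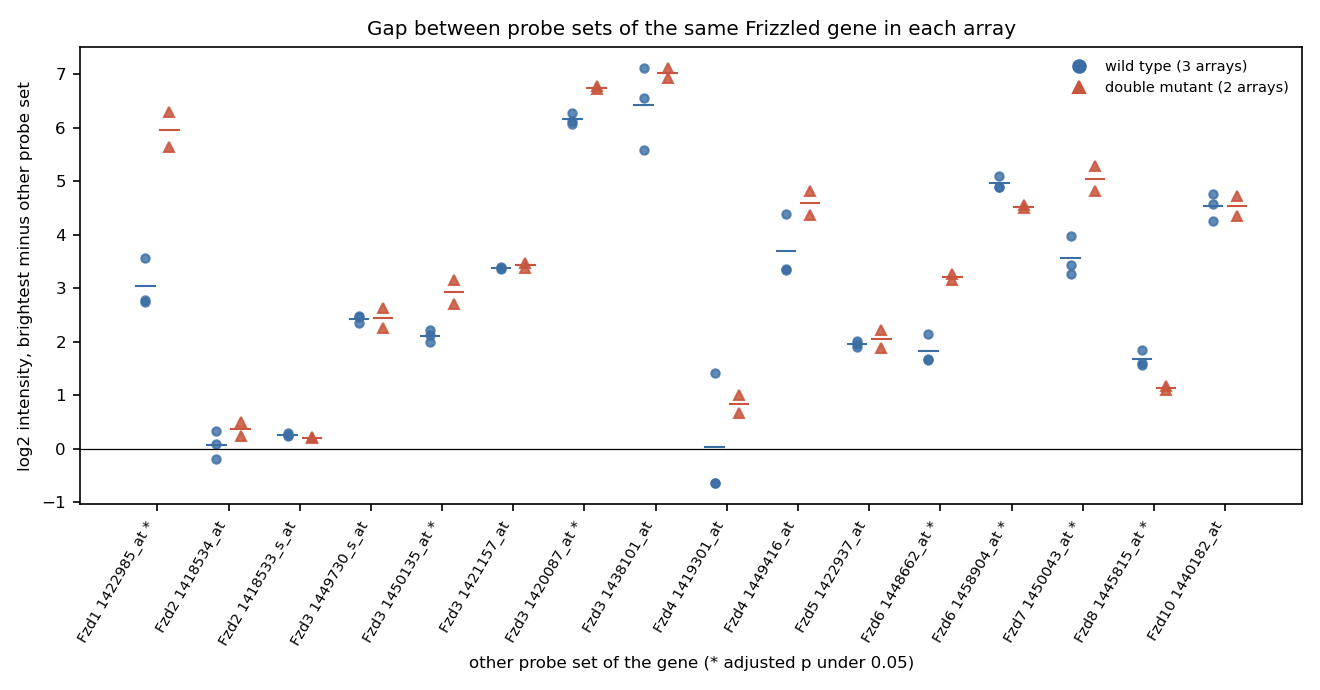
Gap in log2 intensity between the brightest and another probe set of the same Frizzled gene (vertical axis) for each of the 16 other probe sets (horizontal axis), in wild type (circles) and double mutant arrays (triangles), with lines at the group means. Asterisks mark an adjusted p under 0.05. The Fzd1 gap shows the widest separation, with means of 5.96 in double mutants and 3.04 in wild type.

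Probe sets of Tfrc, a gene for which the array carries manufacturer's control probe sets, differed as well. Its level was not taken as constant between the genotypes. The transferrin receptor gene Tfrc read 10.70 and 10.75 in double mutants and 10.35 to 10.59 in wild type on its brightest probe set, 1452661_at. On 1422966_a_at it read 5.40 and 5.45 in double mutants, against a wild type mean of 8.34 ± 0.78 (SD, n = 3) and 7.49 in wild type replicate 3 (−2.91, adjusted p = 0.0269). That array was the lowest of wild type there, as it was on 6 of the 8 Frizzled probe sets called lower and on 57.7% of the 4287 probe sets called lower in all. The manufacturer's Tfrc control probe sets for the 3', middle and 5' part of the transcript gave double mutant minus wild type differences of −2.63, −1.73 and −2.33. On the middle and 5' ones the double mutants read 3.33 to 3.65, close to the highest Trpn value of 3.39. Those 2 sizes are therefore uncertain, and the 3 differences cannot be compared along the transcript. The part of RNA integrity and labelling in the Frizzled differences was not tested. With the Gapdh 3' minus 5' difference as a covariate, limma called 0 Frizzled probe sets, with 5 at an unadjusted p under 0.05, and 0 among all probe sets. That covariate does not overlap between the genotypes, so the fit cannot divide a difference between genotype and covariate. In that fit 6 of the 8 called probe sets kept a negative difference. Those of Fzd2 1418534_at (−1.45), Fzd8 1423348_at (−0.99) and Fzd6 1417301_at (−0.49) were larger than without the covariate, and those of Fzd1 1422985_at (−2.66), Fzd6 1448662_at (−0.999) and Fzd3 1420087_at (−0.38) smaller. Fzd3 1450135_at and Fzd7 1450043_at turned positive (0.28 and 0.29).

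**Figure D4:**
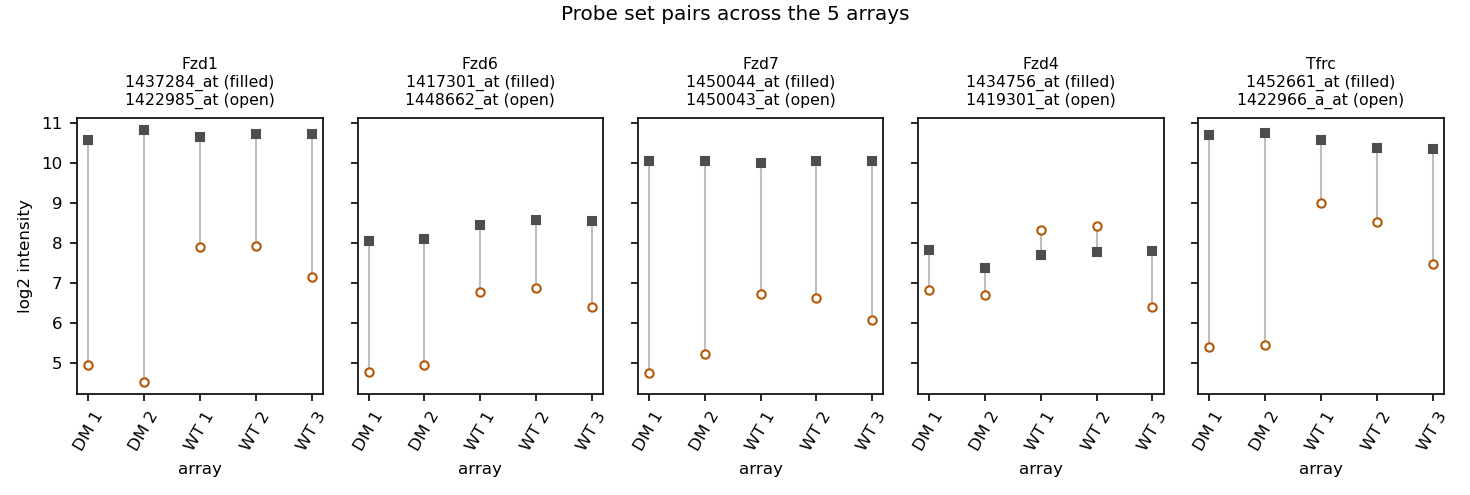
Log2 intensity (vertical axis) in each array (horizontal axis, with DM for double mutant and WT for wild type) of 2 probe sets of Fzd1, Fzd6, Fzd7, Fzd4 and Tfrc. Filled squares are the brightest probe set and open circles another, joined by a grey line within an array. In WT 3 the open circle is lower than in WT 1 and WT 2 in all 5 panels, at 7.15 for Fzd1 and 6.40 for Fzd4. The panels are a selection, and this does not hold for every Frizzled gene. On Fzd2 1418534_at, not shown, WT 3 was the highest wild type array (11.05).

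The genes that work with Frizzled receptors were counted on the brightest probe set of each. Of 50 such genes 3 were called higher and 6 lower, and their median difference was −0.06. Over all genes 6.56% of brightest probe sets were called higher and 8.14% lower, so these counts, and the smaller ones of each list below, do not set the partner genes apart. Among co-receptors and partners 0 of 9 rose and 2 fell, Reck, which helps Wnt7 ligands reach Frizzled receptors (−0.55 ± 0.07, SE, adjusted p = 0.0165), and the Wnt5a receptor gene Ror1 (−0.57 ± 0.10, SE, adjusted p = 0.0301). Ryk stood at 10.36 and 10.41 in double mutants and 10.17 to 10.20 in wild type (adjusted p = 0.0517). Other probe sets of the list were called too, Ror1 lower on 2 (−2.66 and −2.19) and Ror2 higher on 1 (2.66) while its brightest differed by −0.03. On those Ror1 probe sets the double mutants read 3.56 to 3.83, not far above Trpn, so the sizes are uncertain.

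Receptor turnover is set by Znrf3 and Rnf43, which remove Frizzled from the cell surface, by the R-spondins and Lgr proteins that block that removal, and by Shisa proteins, which hold Frizzled inside the cell. In this list 1 of 12 genes rose, Lgr6 (0.75 ± 0.14, SE, adjusted p = 0.0362), and 2 fell. Shisa3 was lower by −1.20 ± 0.15 (SE, adjusted p = 0.0156), at 6.48 and 6.40 in double mutants and 7.45, 7.57 and 7.90 in wild type, and Rspo3 by −0.46 (adjusted p = 0.0304). Znrf3 and Rnf43 themselves were not called (−0.29 and 0.42). Among 20 ligand genes Wnt6 and Wnt5a were higher and Wnt2 was lower. Wnt6 is also among the surface ectoderm markers called higher above. Other ligand probe sets were called too, Wnt6 higher on 1435980_x_at (1.16) and Wnt7b lower on 1420891_at (−1.49) while its brightest differed by 0.02. Limma called 0 of the 3 Dishevelled genes on their brightest probe set, 1 being at an unadjusted p under 0.05, with Dvl1 at 0.46 (adjusted p = 0.0551), Dvl2 at 0.03 and Dvl3 at −0.42, though a second Dvl2 probe set, 1448616_at, fell by 2.93. Of 6 soluble Wnt binders Sfrp1 fell (−0.64) on its brightest and on 2 other probe sets (−1.93 and −3.06), and Frzb, not called on its brightest (0.36, adjusted p = 0.0996), fell on another (−1.84). The 9 calls over these lists became 0 without double mutant replicate 1 or wild type replicate 2, 1 without double mutant replicate 2, 2 without wild type replicate 1 and 3 without wild type replicate 3.

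**Figure D5:**
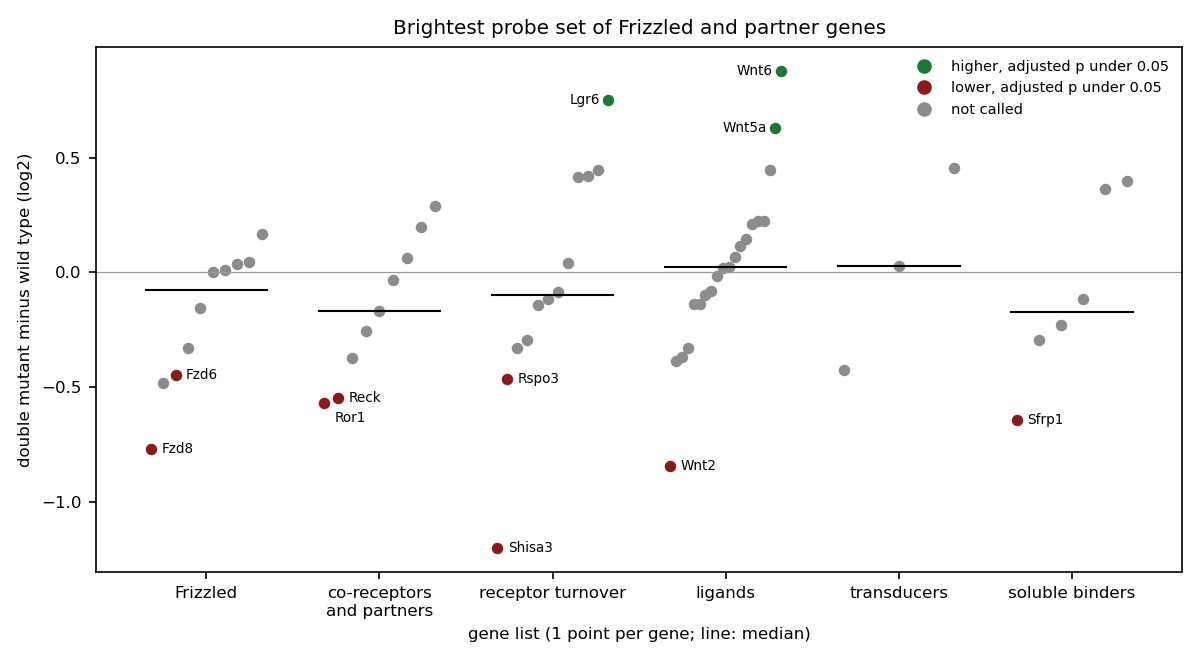
Double mutant minus wild type difference on the log2 scale (vertical axis) of the brightest probe set of each Frizzled and partner gene (points), by list (horizontal axis), with a line at each list's median. Green marks genes called higher and dark red genes called lower at an adjusted p under 0.05. Fzd6 and Fzd8 were lower among the receptors, and Wnt6, Wnt5a and Lgr6 were the 3 genes called higher.

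The genes nearest in pattern were found by the root mean square distance over the 5 arrays between log2 values centred on the wild type mean, among the brightest probe sets of 18192 other genes. For Fzd8, the Frizzled gene with the smallest p on its brightest probe set, they were Ireb2 (distance 0.022), Tmod1 (0.050) and Ift46 (0.051). For Fzd2, taken for the highest wild type signal of the Frizzled probe sets, which is no ranking of transcript amounts, they were Mat1a (0.037), Synm (0.040) and Scyl3 (0.044), of which Mat1a and Synm were dimmer than the median probe set.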

How the data were processed

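RNA from single-channel Affymetrix arrays was analysed, 2 double mutant and 3 wild type. The authors deposited linear intensity values, 1 per probe set and array. RMA and limma are named, with no version or order, per the submitters' processing notes, and other settings are not given in the sources used here. The intensities were not normalized again. Log2 was taken, 64 control probe sets were left out and 45037 were tested without a filter. Labelling used 2 rounds of amplification from the poly-A tail, per the labels' protocols, which favours the 3' end of transcripts. Symbols came from the platform annotation: 34945 probe sets had 1 symbol, 932 several and 9160 none. Of those with 1 symbol, 34741 matched the GRCm38.p6 gene table, which changed 0 symbols.

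Limma 3.58.1 (R 4.3.3) fitted a mean for each genotype and moderated the variances, with 3 residual and 1.29 prior degrees of freedom. Two-sided p-values were corrected over all probe sets by Benjamini-Hochberg. The fit was tested on simulated data. With 5 arrays, their number limits the precision, and p-values set a difference against the spread between arrays of the same genotype. They do not cover a difference in preparation between the genotypes. The brightest probe set had the highest mean over the 5 arrays. Named were all Frizzled probe sets, up to 3 genes with the smallest p in each partner list, and the 3 genes nearest to each of 2 Frizzled genes. Tfrc, Fzd10os, Ror2, Wnt7b, Znrf3 and Rnf43 lie outside this rule and were picked with their values in view. The members and lists were chosen with earlier results of these data known. A planned comparison of the receptor proteins was not made here. Alternatives were a replicate block, other scalings, moderation, filters, an offset of 16, 2 covariates and leaving out each array. Further markers of erythroid cells (1 of 3 called, lower), muscle progenitors (1 of 4, lower), leukocytes (0 of 4) and neural crest (0 of 3) were counted. The erythroid marker called with limma was Alas2 (−1.89, adjusted p = 0.00622), while Hbb-bh1 and Hba-a1 differed by −0.02 and 0.17.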

Additional observations from a re-analysis of the deposited data

How the results depend on the processing

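All 8 Frizzled calls were kept with equal array medians, renewed quantile normalization, trend or robust moderation, an offset of 16 or without probe sets named _s_at or _x_at, and 7 of 7 tested with bright probe sets only. Equal array medians gave 10 Frizzled probe sets lower with limma, and 3 genes on their brightest. The added calls were Fzd4 1449416_at (−1.14, adjusted p = 0.0376) and Fzd9 1427529_at (−0.57, adjusted p = 0.0491). With a replicate block 4 Frizzled probe sets were lower, 0 genes on their brightest, and 2351 probe sets were called in all; 2 of the 8 calls remained (Fzd1 1422985_at and Fzd6 1448662_at) and both dimmer Fzd4 probe sets were added. That block leaves wild type replicate 3 alone in its block and so out of the comparison. Same-numbered arrays deviated together weakly (r of 0.09 and 0.12 across probe sets), the labels give the numbers no meaning, and they were not taken as pairs. With the Y-linked level as a covariate 3 Frizzled probe sets were lower, 1 gene on its brightest, and 3874 were called in all. That level was 3.07 in wild type replicate 1 and 7.73 to 7.99 in the other arrays. The fit therefore mainly sets that array apart, much as leaving it out does. The Gapdh covariate, which does not overlap between the genotypes, left 0 calls among Frizzled probe sets, brightest probe sets, gaps and all probe sets. Leaving out 1 array gave 0 to 6 Frizzled probe sets lower, 0 to 1 genes lower on their brightest, 1 to 8 gaps, 0 to 3 partner genes and 0 to 5108 probe sets in all. The median Frizzled difference stayed between −0.39 and −0.14. By the least variable probe set of each gene the counts stayed within 1.5 times of those by the brightest.

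Of 382 recomputed Frizzled differences 29 changed sign, of which 2 were of called probe sets, both with the Gapdh covariate (Fzd3 1450135_at 0.28 and Fzd7 1450043_at 0.29). The others with that covariate were Fzd3 1421157_at 0.10, Fzd3 1434788_at −0.07, Fzd3 1438101_at 1.80, Fzd4 1419301_at 1.43, Fzd4 1449416_at 0.17, Fzd5 1455604_at −0.73 and Fzd7 1450044_at −0.063. With equal medians they were Fzd1 1437284_at −0.087, Fzd3 1434788_at −0.053, Fzd3 1449730_s_at −0.077, Fzd5 1455604_at −0.0445 and Fzd7 1450044_at −0.079. With the Y-linked covariate they were Fzd1 1437284_at −0.017 and Fzd7 1450044_at −0.0045, with the replicate block Fzd6 1458904_at 0.039, and with renewed quantile normalization Fzd3 1421157_at 0.054. Leave-out ranges that crossed 0 were −0.12 to 0.13 (Fzd1 1437284_at), −0.042 to 0.022 (Fzd3 1421157_at), −0.16 to 0.18 (Fzd3 1449730_s_at), −0.39 to 0.076 (Fzd4 1434756_at), −0.096 to 0.018 (Fzd5 1422937_at), −0.11 to 0.20 (Fzd5 1455604_at), −0.058 to 0.039 (Fzd6 1458904_at) and −0.0062 to 0.021 (Fzd7 1450044_at). The cause was not tested.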
